A study of Danio rerio with 67 samples.

Results

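ISL1 and MNX1, transcription factors that specify motor neurons, were found together in 3 of the 67 single cells sequenced from the spinal cord of adult zebrafish. The 3 cells, called here the ISL1 and MNX1 cells, are lesion cells 3, 8 and 15, and all came from cords transected 7 days earlier. They were chosen on measured values. Their level of plp1b, the main proteolipid gene of myelin in this table, was under 10000 CPM (reads of the gene scaled to a common total of reads on genes), and each had 5 or more reads of ISL1 and of MNX1. They were set against the 5 other lesion cells under the same plp1b limit that had under 5 reads of olig1, a factor of the oligodendrocyte lineage, and of the glutamate receptor gene GRIN1 (ENSDARG00000027828). These are lesion cells 4, 9, 12, 13 and 14. Gene symbols are spelled as in the gene name table used, which gives many zebrafish genes the human spelling.

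All cells carried an olig2:eGFP transgene, in which regulatory sequence of olig2 drives green fluorescent protein, and were sorted one by one from adult fish of the Tg(olig2:eGFP) line by that fluorescence and by a dye of living cells. The lesion group held 32 cells, taken 7 days after transection from the pooled tissue of 9 cords. Besides the 3 ISL1 and MNX1 cells and the 5 cells they are compared with, it held 7 cells with low plp1b that did have olig1 or GRIN1 and 17 cells with plp1b at or above the limit. The sham group held 35 cells from the pooled tissue of 9 uncut cords, of which 6 had low plp1b and 29 did not. Of the 6, only sham cell 30 had under 5 reads of olig1 and of GRIN1. Each of the others had at least 134 reads of both. The labels call the sorted cells oligodendrocyte progenitor cells, but the transgene marks any cell in which the olig2 sequence is active. Each group was 1 pool, sham cells lay in other plate columns than lesion cells, and cells of a pool are not replicates, so no test was made and no p-value is given. Group, pool and plate columns cannot be told apart.

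In the embryonic spinal cord, olig2 marks the ventral progenitor domain that gives rise first to motor neurons and then to oligodendrocyte progenitors. As progenitors leave the cell cycle there, Delta ligands on a newborn neuron activate Notch in its neighbours, whose hes and her genes hold them in the progenitor state, while factors such as those of the Nhlh, Ebf and Insm families act in the newborn neuron. ISL1, MNX1 and LHX3 or LHX4 then set motor neuron identity, and mature motor neurons make acetylcholine. In adult zebrafish, ependymo-radial glia, which line the central canal, include olig2-expressing cells that are known to give rise to new motor neurons after a spinal lesion.

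The ISL1 and MNX1 cells were 9.38% of the lesion cells (3 of 32, exact 95% interval 1.98% to 25.02%) and 20% of the lesion cells with low plp1b (3 of 15, 4.33% to 48.1%). Of 35 sham cells, 0 qualified, which allows a share of up to 10.0%, and of the 6 sham cells with low plp1b 0 qualified, which allows up to 45.9%. These Clopper-Pearson intervals allow for counting error but not for differences between fish. The limits of the rule lie in wide gaps. The highest plp1b level under the limit in lesion cells was 614 CPM, in lesion cell 3, and the lowest above it was 19557 CPM. The lowest counts in the ISL1 and MNX1 cells were 435 reads of ISL1 and 82 reads of MNX1. Among the other 64 cells of the series, 1 cell had 1 read of ISL1, and no cell had more than 2 reads of MNX1. The 3 cells and the 5 cells they are compared with had 0 reads of olig1 and of GRIN1, whereas each of the 7 lesion cells kept out on these genes had at least 216 reads of one or the other.

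The library totals were 553819, 299461 and 415648 reads on genes in lesion cells 3, 8 and 15, within the range of 245408 to 771417 for all cells of the series. The 3 cells lay in wells E7, F9 and H11 of the plate and shared neither a row nor a column. After each of the 8 cells was thinned to 280129 reads, the lowest total among them, lesion cells 3, 8 and 15 had 3772, 3158 and 2777 genes with a read, against 4383, 3464, 4719, 4131 and 4401 in lesion cells 4, 9, 12, 13 and 14. The thinned numbers of genes of both sets overlap, since lesion cell 3 lies above lesion cell 9. At 5 or more reads and without thinning, lesion cells 3, 8 and 15 held 3015, 2531 and 2315 genes of the table. Lesion cells 4, 9, 12, 13 and 14 held 3523, 2776, 3437, 3317 and 3704. These numbers, out of 32266 genes, are the background for every count of list genes at 5 or more reads in a cell below.

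Lesion cell 12 stands apart, because it shares transcripts with lesion cell 13. Of the genes with 50 or more reads in lesion cell 13 and under 5 reads in every cell other than these 2, there were 32, and all 32 had reads in lesion cell 12. The reads in lesion cell 12 were 0.187 of those in lesion cell 13 at the median, with a narrow range of 0.098 to 0.284. Over 2878 ordered pairs of cells with at least 10 such genes, this was the only pair with a median ratio of 0.05 or more. Below that ratio, 39 of 40 such genes of sham cell 33 had reads in sham cell 32, at a median ratio of 0.032, and both are among the 6 sham cells with low plp1b. All 13 such genes of sham cell 8 had reads in sham cell 9, at a median of 0.0228, and neither of these cells has low plp1b. Well E12 of lesion cell 12 and well G12 of lesion cell 13 lie in the same plate column. No pair among the ISL1 and MNX1 cells reached a median ratio of 0.05. Of 11 such genes of sham cell 21, 7 had reads in lesion cell 3, at a median ratio of 0.00397. List medians set against the 5 other cells are therefore also given without lesion cell 12. Where the reads of a gene in lesion cell 12 are near 0.187 of those in lesion cell 13, the cells may not be 2 independent sightings of it. Not every gene follows that ratio, since plp1b had 49 reads in lesion cell 12 and 3 in lesion cell 13. In the other direction, 54 genes had 50 or more reads in lesion cell 12 and under 5 in every cell but these 2. Of these 54 genes, 3 had reads in lesion cell 13. The source of the shared reads was not tested.

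**Figure D1:**
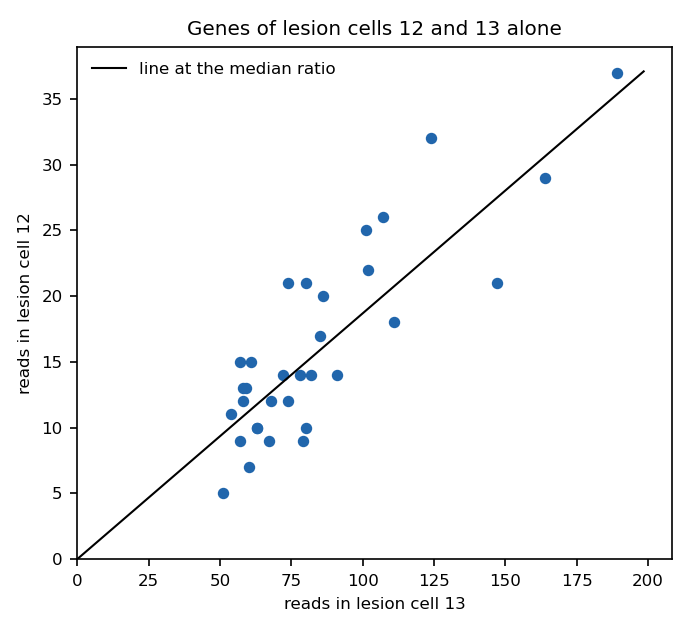
Reads in lesion cell 12 (vertical axis) against reads in lesion cell 13 (horizontal axis) for the 32 genes with 50 or more reads in lesion cell 13 and under 5 reads in every other cell of the series but lesion cell 12; each point is a gene and the line has the slope of the median ratio, 0.187. All 32 genes have reads in lesion cell 12, and the points follow the line.

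The selecting genes had similar levels in the 3 cells for ISL1 and less similar ones for MNX1. ISL1, a LIM homeodomain factor needed for motor neurons to form (chromosome 5, 40128460 to 40133892, GRCz10), stood at 1130, 1453 and 1273 CPM in lesion cells 3, 8 and 15, and at 0 in each of the 5 other cells. MNX1, a homeodomain factor of motor neurons (chromosome 7, 40367193 to 40369989), stood at 224, 778 and 197 CPM, against 0 in each of the 5 other cells. The summed levels over the 3 cells were 1253 CPM (exact 95% Poisson interval 1192 to 1316) for ISL1 and 346 CPM (314 to 380) for MNX1. These genes chose the cells, so their levels are a description only.

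Other motor neuron factors were found in the same cells, unevenly. LHX4, a LIM homeodomain factor that acts with ISL1 in motor neurons, had 86.7, 1018 and 327 CPM in lesion cells 3, 8 and 15. It had no read in any of the 5 other cells and under 5 reads in each of the 64 other cells of the series. The MNX1 relative mnx2a had 50.1 CPM in lesion cell 8 and 128 CPM in lesion cell 15, with none in lesion cell 3. ISL2, a close relative of ISL1, had 73.5 CPM in lesion cell 8 and none in the other 2, and mnx2b had 66.8 CPM in the same cell and none in the other 2. Leaving aside ISL1 and MNX1, which chose the cells, lesion cell 8 held 4 of the other 6 factors on the list at 5 or more reads, lesion cell 15 held 2 and lesion cell 3 held 1, against 0 in each of the 5 other cells. Their summed level was 86.7 CPM in lesion cell 3, 1209 CPM in lesion cell 8 and 455 CPM in lesion cell 15. The 7 lesion cells with olig1 or GRIN1 and the 6 sham cells with low plp1b also held 0 each.

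Genes that motor neurons use to make and store acetylcholine were present in all 3 cells. SLC18A3 (ENSDARG00000006356), the transporter that loads acetylcholine into synaptic vesicles, stood at 979, 608 and 1297 CPM in lesion cells 3, 8 and 15, and no other cell of the series had a read of it. CHAT, the enzyme that makes acetylcholine, stood at 68.6, 110 and 233 CPM, against 0, 0, 2.18, 3.20 and 0 CPM in lesion cells 4, 9, 12, 13 and 14. In both genes the lowest of the 3 cells lay above the highest of the 5 others. On chromosome 13 of GRCz10 the 2 genes are neighbours, CHAT from 29278909 to 29290881 and SLC18A3 from 29291599 to 29294004, with no counted exon in common.

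The later motor neuron genes divided the 3 cells. PRPH, the intermediate filament peripherin, had 2707 CPM in lesion cell 3 and none in lesion cells 8 and 15. CHODL, a membrane lectin known from fast motor neurons in mouse, had 426 CPM in lesion cell 3 alone. RET, the receptor for ligands of the GDNF family, had 262 CPM in lesion cell 3, none in lesion cell 8 and 1330 CPM in lesion cell 15. AGRN, which encodes agrin, the organiser of the neuromuscular synapse, was in all 3, with 719, 307 and 279 CPM, while none of the 5 others exceeded 17.4 CPM. ACHE, which breaks down acetylcholine, had 419 and 144 CPM in lesion cells 3 and 8 and none in lesion cell 15, within reach of the 157 CPM of lesion cell 9. Of the 12 genes on the cholinergic and mature motor neuron list, lesion cells 3, 8 and 15 held 8, 5 and 4 at 5 or more reads, and no other lesion cell of the 5 held more than 1.

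**Figure D2:**
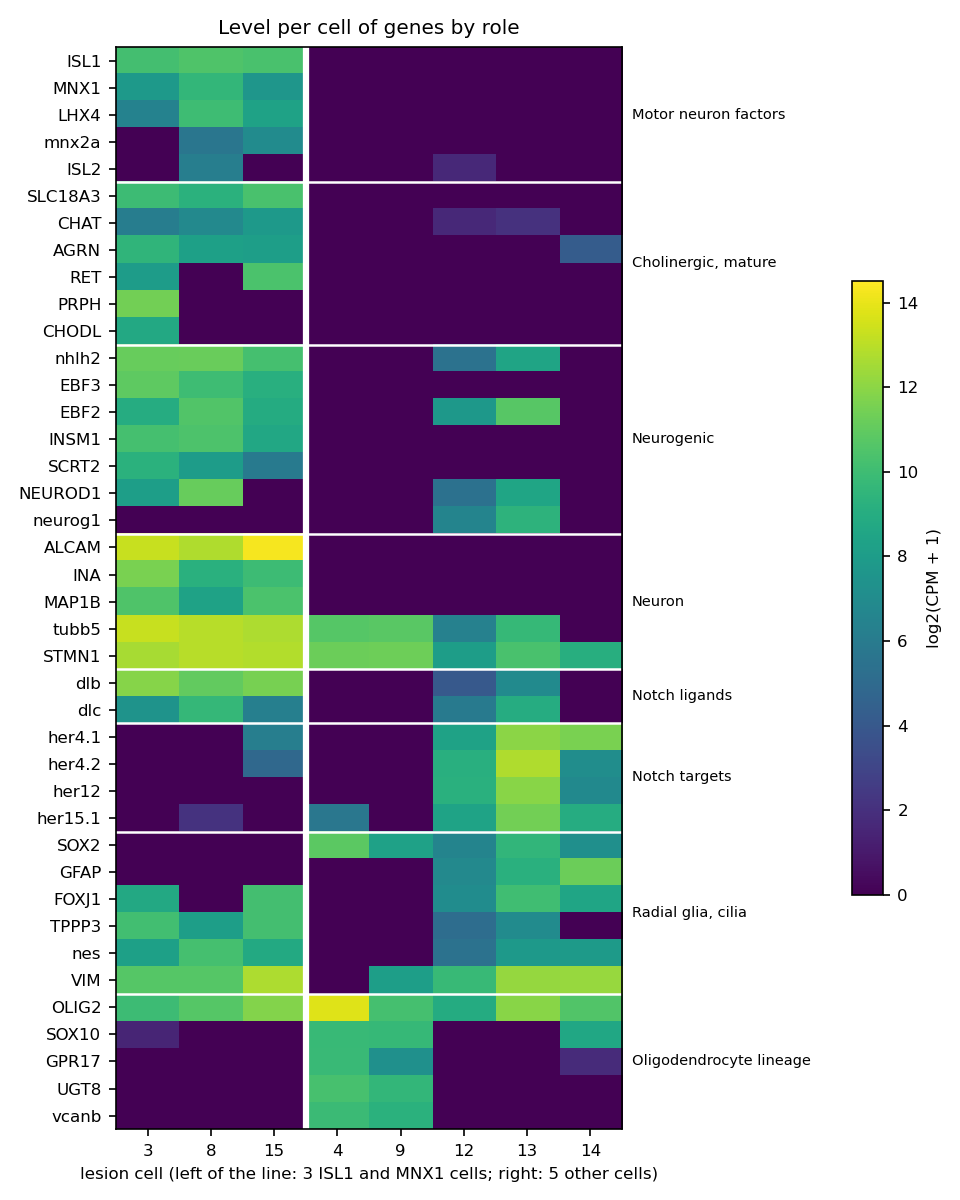
Level of 40 genes, as log2(CPM + 1) from dark (0) to bright, in the 3 ISL1 and MNX1 cells (left of the white line: lesion cells 3, 8 and 15) and the 5 other lesion cells (right: lesion cells 4, 9, 12, 13 and 14), with genes in blocks by role. ISL1, MNX1, LHX4, SLC18A3, EBF3, INSM1 and ALCAM fill the left side only, while SOX2 fills the right side only.

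Across the table, 7162 genes had a mean of at least 20 CPM in either set. For each, the log2 ratio of the mean CPM of the ISL1 and MNX1 cells over that of the 5 other cells was taken after 1 CPM was added to each mean. The median ratio over all 7162 genes was -0.72. Single cells miss many transcripts, and large ratios were common: 1552 genes (21.7%) were 4-fold or more higher and 3033 (42.3%) 4-fold or more lower. With the added demand that no cell of one set overlap any cell of the other, 156 genes (2.18%) were higher and 106 (1.48%) lower, or 164 and 126 without lesion cell 12. Set against all 12 other lesion cells with low plp1b, 86 genes were higher and 6 lower. The counts depend on each cell, since fewer cells overlap less often. Without lesion cell 3, 8 or 15 the higher count was 282, 284 or 397, and the lower count was 165 without lesion cell 3. Without lesion cell 4, 9 or 14 the lower count was 172, 197 or 184. These shares are the background for the counts of every gene list below, and the cells were chosen on ISL1 and MNX1, so no count is a test.

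The largest of the differences without overlap on the higher side, by a rule that takes 15 named genes per direction, were led by a cell surface molecule. ALCAM (chromosome 10, 28845124 to 28949177), an adhesion molecule of growing axons known in zebrafish from the surface of motor neurons, stood at 9850, 7086 and 20360 CPM in lesion cells 3, 8 and 15, and had no read in the 5 others. Taking 3 reads over the 5 cells (1.59 CPM) as the most that 0 reads allow, it was at least 7795-fold higher by counting alone. It was not confined to the 3 cells: 8 of the 64 other cells of the series had 5 or more reads, with a highest level of 810 CPM. The remaining genes of the 15 had no read in any of the 5 cells either.

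The others of the 15 are given here with what each is known for. INA (ENSDARG00000053248), a neuronal intermediate filament protein, had 3127, 584 and 994 CPM in lesion cells 3, 8 and 15. MAP1B, a microtubule-associated protein of growing axons, had 1477, 324 and 1340 CPM. ABLIM1, an actin-binding LIM protein, had 1040, 301 and 404 CPM. All 3 of these genes had no read in the 5 cells, but MAP1B reached 2958 CPM in a lesion cell with olig1 or GRIN1. The guidance ligand SLIT3 was the most even gene of the 15, at 453, 431 and 457 CPM. The granin chga, a protein of dense-core vesicles, had 600, 334 and 616 CPM, and NSG2, a protein of neuronal endosomes, had 1529, 801 and 419 CPM. ELAVL4, a neuronal RNA-binding protein, had the largest ratio of highest to lowest cell among these named genes, at 652, 938 and 62.6 CPM. It was held at 5 or more reads by 22 of the 64 other cells as well. ISLR, a protein with immunoglobulin and leucine-rich repeat domains, had 1916, 778 and 1665 CPM.

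**Figure D3:**
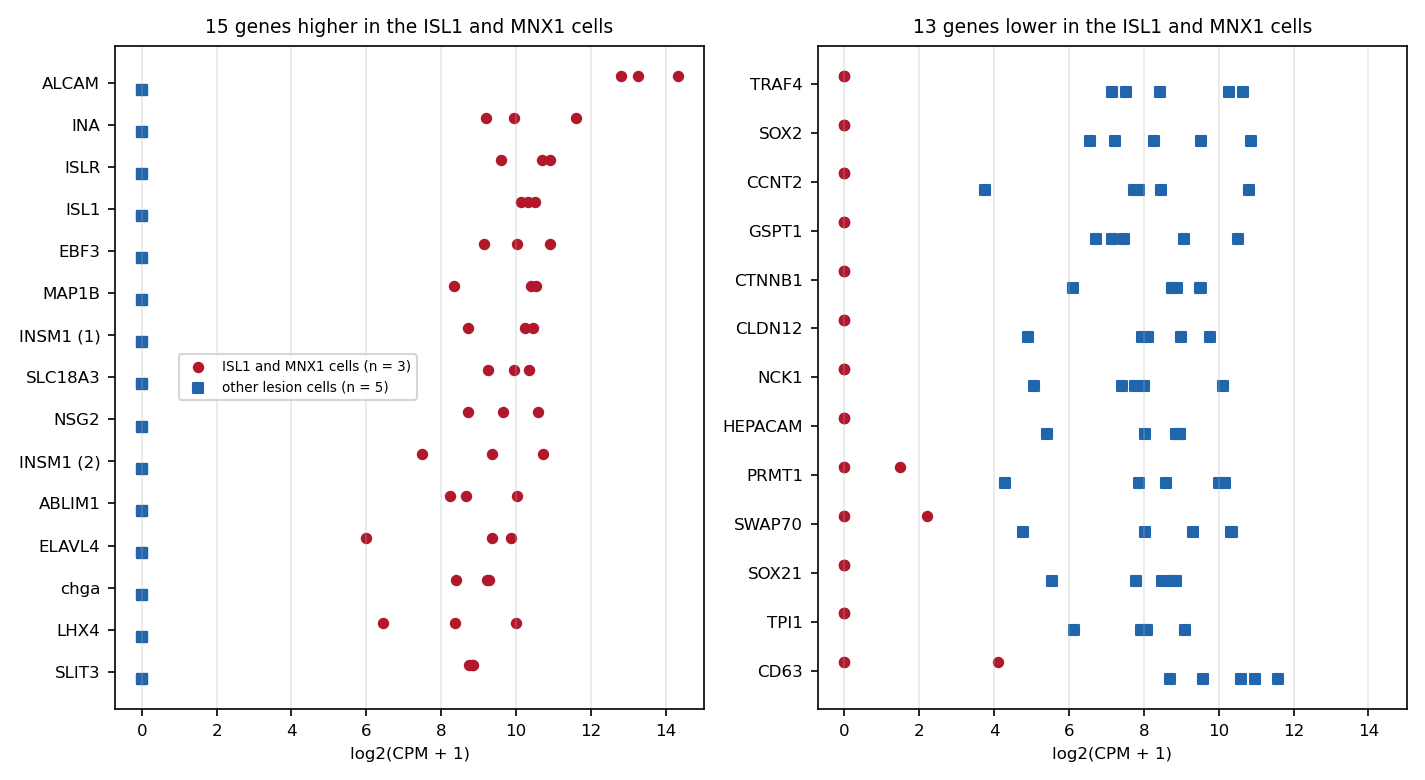
Level per cell, as log2(CPM + 1) on the horizontal axis, of 15 genes higher (left) and 13 genes lower (right) among those with the largest ratios without overlap; circles are the 3 ISL1 and MNX1 cells and squares the 5 other lesion cells, and the 2 INSM1 rows are ENSDARG00000091756 (1) and ENSDARG00000053301 (2). In the left panel every square lies at 0, and in the right panel CD63 is the gene with the highest circle, at 16.3 CPM in lesion cell 3. ISL1, which with MNX1 chose the cells, is among the 15 genes of the left panel.

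More factors of newborn neurons were detected in each of the 3 cells than in any of the 5. Of 38 neurogenic factors, lesion cells 3, 8 and 15 held 14, 16 and 13 at 5 or more reads, against 7, 3, 8, 10 and 3 in lesion cells 4, 9, 12, 13 and 14. Over all 32266 genes, lesion cells 3, 8 and 15 held 3015, 2531 and 2315 at that limit. Lesion cells 4, 9, 12, 13 and 14 held 3523, 2776, 3437, 3317 and 3704. The list summed to 10950, 17910 and 4256 CPM in lesion cells 3, 8 and 15 and to at most 4199 CPM in the 5. It reached 4810 CPM in a lesion cell with olig1 or GRIN1, above lesion cell 15. Of the 18 that were measured in the comparison, 13 were 4-fold or more higher and 2 4-fold or more lower, and 6 were higher without overlap. Their median log2 ratio was 3.85, against -0.72 for all genes. It was 3.16 without lesion cell 12 and 1.42 without lesion cell 8, when the median of all genes was -0.66 and -1.67. The size of the neurogenic median thus rests in part on lesion cell 8, and part of its fall is shared by all genes.

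The helix-loop-helix factor nhlh2 (chromosome 9, 33167556 to 33170914), active in newborn neurons, had 2219, 2304 and 1189 CPM in lesion cells 3, 8 and 15, against 0, 0, 43.6, 352 and 0 CPM in lesion cells 4, 9, 12, 13 and 14. Its summed levels were 1902 CPM (1826 to 1979) in the 3 cells and 69.1 CPM (57.8 to 82.1) in the 5. EBF3, of a family of factors that act as neurons differentiate, had 1936, 1035 and 565 CPM in the 3 cells and no read in the 5. Its relative EBF2 did not separate the sets: it had 495, 1489 and 476 CPM in lesion cells 3, 8 and 15, and 1712 CPM in lesion cell 13. The zinc finger factor INSM1, which promotes the exit of neuronal progenitors from division, was counted as 2 genes. ENSDARG00000091756 had 1217, 1406 and 421 CPM and ENSDARG00000053301 had 659, 1683 and 178 CPM, with no read of either in the 5 other cells. The zinc finger repressor SCRT2 had 621, 254 and 60.2 CPM in the 3 cells and none in the 5.

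The proneural factors were not shared by the 3 cells. NEUROD1 had 282 and 2211 CPM in lesion cells 3 and 8 and none in lesion cell 15, and it had 368 CPM in lesion cell 13. NEUROD4, at 812 CPM, and NEUROD2, at 247 CPM, were in lesion cell 8 and in neither of the other ISL1 and MNX1 cells. The upstream factor neurog1 had no read in the 3 cells, and was found in lesion cell 13 at 663 CPM and in lesion cell 12 at 93.8 CPM. SOX4 (ENSDARG00000004588), a factor of immature neurons, had 1937, 2962 and 229 CPM in lesion cells 3, 8 and 15, and 1811 CPM in lesion cell 4, so it overlapped. Lesion cell 13 was thus the cell of the 5 with nhlh2, EBF2, NEUROD1 and neurog1. The reads of these genes in lesion cell 12 were 0.182, 0.183, 0.165 and 0.208 of those in lesion cell 13.

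Of the Notch ligands, dlb separated the 2 sets and the others were mixed. The Delta ligand dlb (chromosome 5, 36093706 to 36101607) had 3674, 2047 and 2916 CPM in lesion cells 3, 8 and 15, against 0, 0, 15.3, 122 and 0 CPM in lesion cells 4, 9, 12, 13 and 14, a ratio of means of 102-fold, or 91.7-fold without lesion cell 12. Summed, it stood at 3042 CPM (2947 to 3139) in the 3 cells and 23.9 CPM (17.5 to 32.01) in the 5. A further Delta ligand, dlc, had 172, 791 and 74.6 CPM in the 3 cells and 509 CPM in lesion cell 13, so it overlapped. Of 2 Delta genes with the symbol DLL1, which the Notch list did not reach by name, ENSDARG00000010791 had 977, 1506 and 433 CPM in lesion cells 3, 8 and 15 and overlapped the 464 CPM of lesion cell 13. The other, ENSDARG00000020219, had no read in the 3 cells and 470.5 CPM in lesion cell 13. The Jagged ligand jag2b had 1.81, 3.34 and 469 CPM in lesion cells 3, 8 and 15. In lesion cells 4, 9, 12, 13 and 14 it had 0, 153.5, 63.3, 432 and 29.8 CPM, so it overlapped. The list symbol dld was matched without regard to case to DLD (ENSDARG00000008785). In the human spelling that symbol names a mitochondrial enzyme and not a Delta ligand, so the levels of DLD are left out here. DLD remains among the 25 measured genes of the Notch list. Of the machinery that receives the signal, the receptor NOTCH1 (ENSDARG00000103554) had 320, 26.7 and 289 CPM in the 3 cells and the protease adam10a had 486, 267 and 1201 CPM, and both overlapped the 5 others. Neither dlb nor dlc had 5 reads in any of the 7 lesion cells with olig1 or GRIN1 or of the 6 sham cells with low plp1b.

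Notch target genes of the her family were low in the ISL1 and MNX1 cells, and high in only some of the 5 others. The gene her12 had no read in the 3 cells, against 0, 0, 593, 3851 and 117 CPM in lesion cells 4, 9, 12, 13 and 14. The genes her4.1 to her4.5 had no read in lesion cells 3 and 8 and between 2.41 and 72.2 CPM in lesion cell 15, while her4.1 had 332, 4103 and 3106 CPM in lesion cells 12, 13 and 14. Within that tandem family her4.2 shares exons with her4.3, and her4.4 with her4.5, so their single values are uncertain. Lesion cells 4 and 9 had no read of any of the 5 her4 genes, so the 5 cells were not alike here. The related target HEY2 went the other way, with 176 CPM in lesion cell 15 and at most 2.18 CPM in the 5. Of the 25 genes of the Notch signalling list that were measured, the enzyme gene DLD among them, 3 were 4-fold or more higher and 15 4-fold or more lower. Of these genes 1, dlb, did not overlap. Their median log2 ratio was -5.51, or -5.59 without lesion cell 12 and -3.54 without lesion cell 13. Against the 6 sham cells with low plp1b the median was 4.19, or 3.99 without sham cell 32. These sham cells, but for sham cell 30, had olig1 and GRIN1, unlike the 5 other cells. The her4 genes had at most 93.0 CPM in those sham cells. Against the 5 other cells, with genes at 0 in one set placed at their counting bound, the median was -4.24.

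Genes of neurons in general were higher in the ISL1 and MNX1 cells than in the 5 other cells, but their summed level overlapped that of further cells with low plp1b. Of 45 genes on the neuron list, lesion cells 3, 8 and 15 held 24, 22 and 18 at 5 or more reads, against 14, 11, 9, 9 and 5 in lesion cells 4, 9, 12, 13 and 14. Over all genes the 3 cells held 3015, 2531 and 2315 at that limit, and the 5 held 3523, 2776, 3437, 3317 and 3704. Of the 25 measured, 17 were 4-fold or more higher and 1 4-fold or more lower, with 11 higher without overlap and a median log2 ratio of 3.34, or 3.04 without lesion cell 12. Against all 12 other lesion cells with low plp1b the median was 0.59, when that of all genes was -0.75. Against the 6 sham cells with low plp1b, which but for sham cell 30 had olig1 and GRIN1, it was 0.48, or 0.63 without sham cell 32. That of all genes was then -0.64 and -0.55. The summed level of the list was 22080 to 34980 CPM in the 3 cells, 716 to 8767 CPM in the 5, 9318 to 28530 CPM in the 7 lesion cells with olig1 or GRIN1 and 4632 to 23280 CPM in the sham cells with low plp1b.

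Single genes of this list showed both patterns. The beta-tubulin tubb5 had 9857, 7751 and 6797 CPM in lesion cells 3, 8 and 15, against 1650, 1738, 80.7, 839 and 0 CPM in lesion cells 4, 9, 12, 13 and 14, and up to 6026 CPM in the lesion cells with olig1 or GRIN1. STMN1 (ENSDARG00000033655), which destabilises microtubules, had 6267, 7791 and 7254 CPM, against 2454, 2524, 264, 1277 and 535 CPM. Both lay without overlap against the 5 cells, and STMN1 reached 6426 CPM in a lesion cell with olig1 or GRIN1. MLLT11, a small neuronal protein, had 2071, 2702 and 825 CPM and overlapped the 2056 CPM of lesion cell 9. SNAP25 (ENSDARG00000058117), a protein of the vesicle fusion machinery, had 166, 180 and 188 CPM in the 3 cells and no read in the 5, while the other gene of that symbol (ENSDARG00000020609) overlapped. Lesion cell 15 lacked some genes that the other 2 had. STMN4 (ENSDARG00000043932), a neuronal stathmin, had 2327 and 1453 CPM in lesion cells 3 and 8 and none in lesion cell 15, and STMN2 (ENSDARG00000033234) had 414 and 4021 CPM and none in lesion cell 15.

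Molecules that guide and join axons were mixed. Of 30 measured genes on that list, 12 were 4-fold or more higher and 11 4-fold or more lower, with 5 higher and 1 lower without overlap and a median log2 ratio of 0.29, or 0.02 without lesion cell 12. ROBO3, a guidance receptor of the Robo family, had 271, 438 and 873 CPM in lesion cells 3, 8 and 15, against at most 125 CPM in the 5 others. NRP1, a semaphorin receptor, had 197, 124 and 900 CPM, against at most 69.6 CPM. The adhesion gene chl1b had 852, 401 and 123 CPM in the 3 cells and overlapped the 254 CPM of lesion cell 14, and alcamb, a relative of ALCAM, had 61.4, 0 and 1412 CPM and overlapped as well. EFNA2, an ephrin ligand, had 249, 331 and 164 CPM and was found at 5 or more reads in no other cell of the series. CXCR4 (ENSDARG00000041959) and the receptor gene epha2a had no read in the 3 cells, and 605 and 903 CPM in lesion cell 13. Of 39 measured genes of growth cone microtubules and actin, 10 were 4-fold or more higher and 2 4-fold or more lower, with a median of 1.03, or 0.87 without lesion cell 12. Among them tuba2, an alpha-tubulin, had 1553, 4408 and 869 CPM in the 3 cells and at most 200 CPM in the 5.

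Few genes of other kinds of neurons were detected, in the 3 cells and in the 5 alike. Most genes of the table had no read either, since 12088 of 32266 had a read in any of the 8 cells together. No more than these can have had a read in the 3 cells or in the 5 alone, and those numbers are not given here. At 5 or more reads, 5037 genes were in any of the 3 cells. Counts of genes with no read therefore do not by themselves show absence. Of 46 genes on the spinal interneuron list, 43 had no read in the 3 cells and 45 had none in the 5. PRDM8, with 181 CPM in lesion cell 3, was the only one to reach a mean of 20 CPM in them. On the list of the neurons that contact cerebrospinal fluid, 9 of 10 genes had no read in the 3 cells and 9 had none in the 5. Of 10 glutamate and GABA neuron genes, 7 had none in the 3 cells and 8 had none in the 5. Both genes named GPHN, for gephyrin, a scaffold of inhibitory synapses, were in lesion cell 15, ENSDARG00000089076 at 183 CPM and ENSDARG00000100851 at 128 CPM, and had no read in lesion cells 3 and 8 or in the 5. This list summed to 310.4 CPM in lesion cell 15, above its 233 CPM of CHAT, and to at most 310.9 CPM in the 5. SLC17A6 (ENSDARG00000041150), a vesicular glutamate transporter, had 50.1 CPM in lesion cell 8 and 186 CPM in lesion cell 9. Of 68 neurotransmitter receptor genes, 61 had no read in the 3 cells and 61 had none in the 5. Among the others, GLRA1, a glycine receptor subunit, had 247 CPM in lesion cell 8. The summed level of this receptor list was at most 604 CPM in the 3 cells, at most 278 CPM in the 5, and reached 11220 CPM in a lesion cell with olig1 or GRIN1.

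Hox genes, whose combined activity marks position along the body axis, were detected in all 3 cells. HOXB8 had 2761, 4304 and 3787 CPM in lesion cells 3, 8 and 15, against 180, 439, 109, 819 and 667 CPM in lesion cells 4, 9, 12, 13 and 14. HOXB9 had 305, 852 and 255 CPM, against at most 48.0 CPM. Both lay without overlap, whereas hoxa9b and HOXC9 overlapped, hoxa9b with 682 CPM and HOXC9 with 563 CPM in lesion cell 13. Of the 17 measured Hox genes, 7 were 4-fold or more higher and 1 4-fold or more lower, with a median log2 ratio of 1.55, or 1.45 without lesion cell 12. All cells came from pieces of about 0.5 mm at a matched level of the cord, so the labels give no difference of position between these cells.

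**Figure D4:**
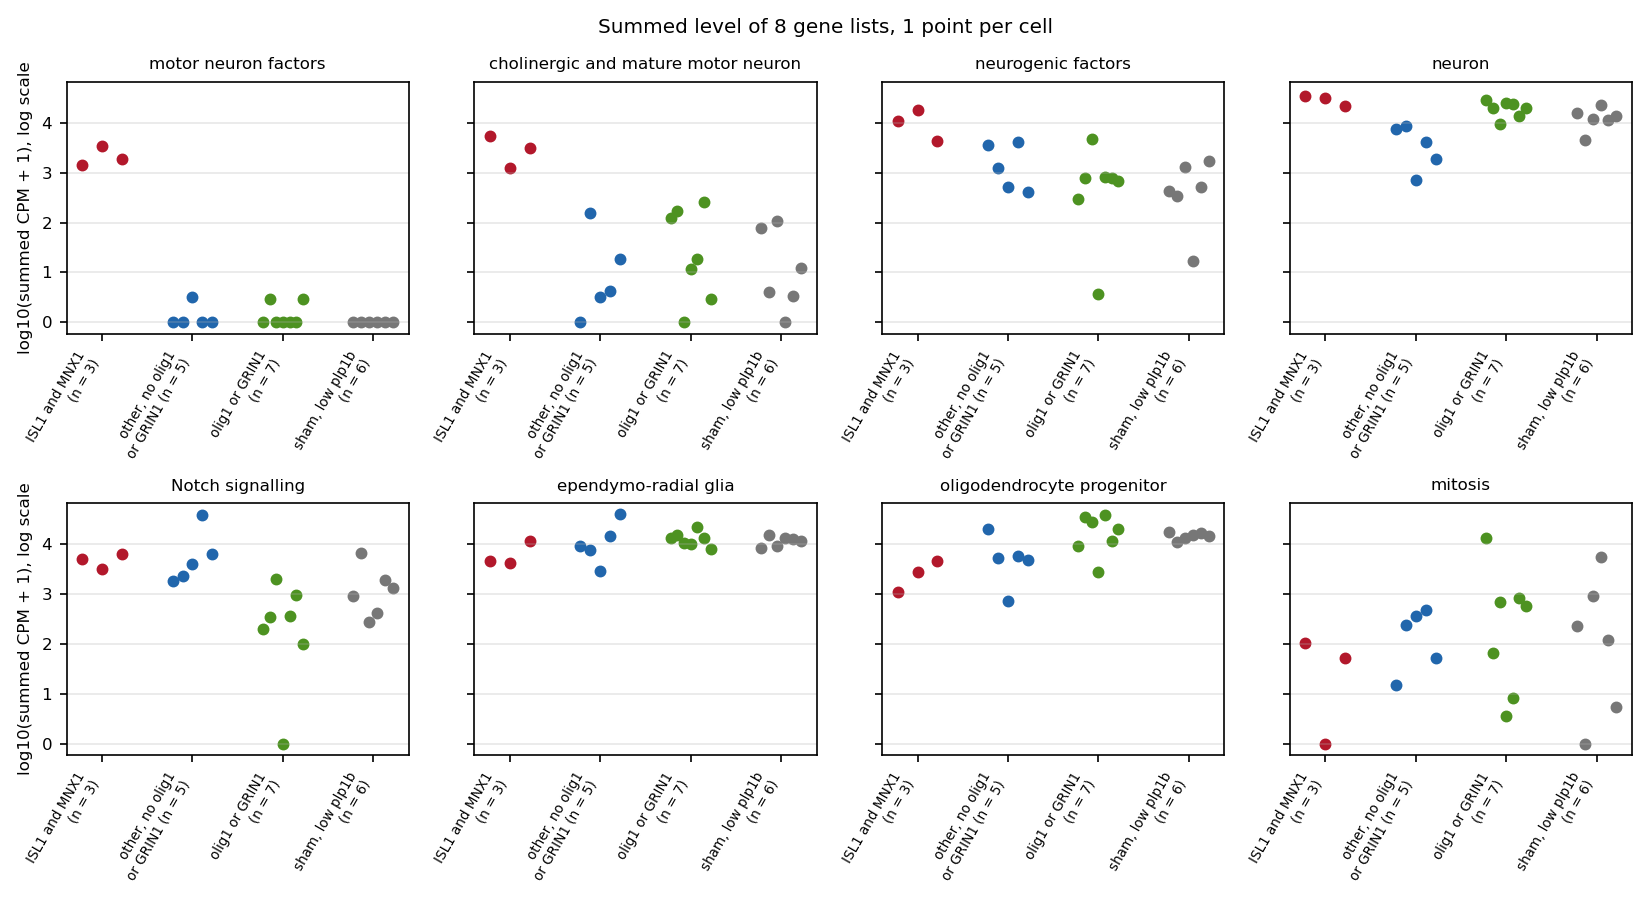
Summed level of 8 gene lists in each cell, as log10(summed CPM + 1), in the 3 ISL1 and MNX1 cells, the 5 other lesion cells compared, the 7 lesion cells with low plp1b and olig1 or GRIN1, and the 6 sham cells with low plp1b; each point is a cell and there are no error bars. The motor neuron factor list holds ISL1 and MNX1, which chose the cells. Without them it sums to 86.7 to 1209 CPM in the 3 cells and at most 2.18 CPM in the 5. Only this list and the cholinergic and mature motor neuron list show no overlap of the 3 cells with another class. The neurogenic, neuron, Notch signalling, ependymo-radial glia, oligodendrocyte progenitor and mitosis lists overlap between classes.

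Genes of ependymo-radial glia split into absent and present. SOX2, a factor of neural progenitors, had no read in lesion cells 3, 8 and 15, against 1858, 311, 93.8, 736 and 149 CPM in lesion cells 4, 9, 12, 13 and 14, at least 266-fold lower (323-fold without lesion cell 12) when 3 reads over the 3 cells (2.36 CPM) are taken as the most that 0 reads allow. GFAP, the intermediate filament of radial glia, also had no read in the 3 cells, but it was at 0 in lesion cells 4 and 9 too and had 111, 595 and 2395 CPM in lesion cells 12, 13 and 14. FABP7 (ENSDARG00000007697), a fatty acid binding protein of radial glia and progenitors, had 116, 0 and 1542 CPM in lesion cells 3, 8 and 15, against 4298, 4255, 336, 1773 and 16090 CPM in lesion cells 4, 9, 12, 13 and 14, and overlapped. The Notch receptor NOTCH3 had no read in the 3 cells and 416 CPM in lesion cell 13. In contrast nes, which encodes nestin, had 302, 1205 and 445 CPM in the 3 cells, above the highest of the 5 others, 234 CPM. VIM (ENSDARG00000010008), the filament vimentin, had 1614, 1626 and 6638 CPM in the 3 cells and overlapped the 4811 and 4999 CPM of lesion cells 13 and 14. MSI1, an RNA-binding protein of neural progenitors, had 468, 892 and 1246 CPM and overlapped the 689 CPM of lesion cell 14. Of 21 measured genes of this list, 2 were 4-fold or more higher and 14 4-fold or more lower, and the median log2 ratio was -3.30, or -3.58 without lesion cell 12. It was -5.25 without lesion cell 3 and -5.25 without lesion cell 15, when the median of all genes was -2.72 and -1.43.

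Genes of motile cilia were present in lesion cells 3 and 15 and nearly absent in lesion cell 8. FOXJ1, the master factor of motile cilia, had 432 and 1169 CPM in lesion cells 3 and 15 and no read in lesion cell 8, against 131, 1059 and 366 CPM in lesion cells 12, 13 and 14. Lesion cells 3, 8 and 15 held 11, 1 and 5 of 33 genes of this list at 5 or more reads. In lesion cell 8 that gene was TPPP3, a tubulin-binding protein, which had 1085, 277 and 1150 CPM in the 3 cells and at most 125 CPM in the 5 others. Of the 20 measured, 3 were 4-fold or more higher and 9 4-fold or more lower, with a median log2 ratio of -1.14, or -1.43 without lesion cell 12.

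Genes of the oligodendrocyte lineage were mixed in the 3 cells, with most measured progenitor genes lower and myelin genes overlapping those of the 5. OLIG2 (chromosome 9, 32940682 to 32942789), whose regulatory sequence drives the reporter, had 966, 1610 and 3655 CPM in lesion cells 3, 8 and 15, against 14220, 1189, 478, 3867 and 1524 CPM in lesion cells 4, 9, 12, 13 and 14. The sets overlap, and OLIG2 was detected in all 67 cells. SOX10, the lineage factor of oligodendrocytes, had 1.81 CPM in lesion cell 3 and none in lesion cells 8 and 15, against 888, 839, 0, 0 and 390 CPM in the 5 cells. GPR17, a receptor of committed precursors, and vcanb, a proteoglycan of progenitors, had no read in the 3 cells, and vcanb had 940 and 621 CPM in lesion cells 4 and 9 and none in lesion cells 12, 13 and 14. Of 17 measured progenitor genes 3 were 4-fold or more higher and 12 4-fold or more lower, with a median of -5.18, or -5.50 without lesion cell 12. The median was -4.14 with genes at 0 in one set at their counting bound and -2.37 with 10 CPM added in place of 1 CPM. One progenitor gene with a higher mean, the phosphatase inhibitor ppp1r14ba, had 0, 878 and 387 CPM in the 3 cells and at most 91.2 CPM in the 5. Of 12 measured genes of the myelin list, 1 was 4-fold or more higher and 6 4-fold or more lower, with a median of -1.77, or -2.68 without lesion cell 12, and the list summed to 1764 to 3924 CPM in the 3 cells and 1264 to 5093 CPM in the 5. The higher one, cnp, an enzyme of myelin membranes, had 1398, 1543 and 1124 CPM in the 3 cells, above the 326 CPM of lesion cell 14, and reached 1853 CPM in a lesion cell with olig1 or GRIN1. The myelin basic protein gene mbpa had 594 CPM in lesion cell 3, beside its 614 CPM of plp1b, and at most 2.41 CPM in lesion cells 8 and 15. Sham cell 21, in well E6 next to well E7 of lesion cell 3, had 54150 reads of plp1b, against 340 in lesion cell 3. Whether the myelin reads of lesion cell 3 came from other cells was not tested.

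Few genes of division were detected. With 12088 of 32266 genes read in the 8 cells together, and no more than these in the 3 cells, the counts of genes with no read do not by themselves show absence. At 5 or more reads, 5037 genes of the table were in any of the 3 cells. Of 41 mitosis genes, 38 had no read in the 3 cells, and lesion cells 3, 8 and 15 held 2, 0 and 1 at 5 or more reads. The checkpoint gene BUB3 had 90.3 and 48.1 CPM in lesion cells 3 and 15. HMGB2, a chromatin protein of dividing cells, had at most 3.61 CPM in the 3 cells, against 11.7, 236, 34.9, 323 and 52.2 CPM in lesion cells 4, 9, 12, 13 and 14. The 5 other cells were little different as a set, with 36 of the 41 genes at 0 and a summed level of at most 483 CPM, whereas 1 lesion cell with olig1 or GRIN1 reached 13200 CPM. Only 4 mitosis genes were measured, so their median of -5.20, or -4.97 without lesion cell 12, rests on few values, and of 9 measured genes of DNA replication 3 were 4-fold or more higher and 4 4-fold or more lower. Among genes of cell cycle exit, btg3, an antiproliferative factor, had 161, 427 and 91.4 CPM in the 3 cells and at most 4.67 CPM in the 5, while BTG1, of the same family, had 789, 1984 and 1294 CPM and overlapped the 1360 CPM of lesion cell 13. The inhibitor CDKN1B (ENSDARG00000054271) had 545, 441 and 19.3 CPM and overlapped. The cyclin CCND1 had no read in the 3 cells and 688 CPM in lesion cell 13. Of the 13 measured, 2 were 4-fold or more higher and 6 4-fold or more lower.

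Of the 15 genes named as lower by the same rule, 13 are described here, most of them of general use in the cell. Set against all 12 other lesion cells with low plp1b, 6 genes of the table were lower without overlap, against 106 here. TRAF4, a signalling adaptor, had no read in lesion cells 3, 8 and 15, against 1613, 1235, 343, 182 and 142 CPM in lesion cells 4, 9, 12, 13 and 14. CTNNB1, which encodes beta-catenin, had no read in the 3 cells, against 722, 735, 67.6, 474 and 428 CPM in the 5, and was detected in 31 of the 64 other cells. The tight junction gene CLDN12, the glial adhesion gene HEPACAM and the progenitor factor SOX21 also had no read in the 3 cells and at least 28.8 CPM in each of the 5. The same held for GSPT1, a factor of translation termination, for TPI1, a glycolytic enzyme, and for the adaptor NCK1. The cyclin CCNT2 had no read in the 3 cells and at least 12.4 CPM in each of the 5. The arginine methyltransferase PRMT1 had 1 read in the 3 cells, SWAP70 had 2, and CD63, a tetraspanin, had 16.3 CPM in lesion cell 3, 0 in lesion cells 8 and 15 and at least 416 CPM in each of the 5. Among them CLDN12 shares exon positions with another gene on its own strand, and TPI1, CD63 and CTNNB1 with genes on the other strand, which the counting did not tell apart, so their values are uncertain. The same holds for SOX4, VIM and HOXC9 above, each of which overlaps a gene on the other strand. SLC18A3 also shares exon positions with a gene on its own strand, as SOX4 does with sox4a. ISLR, ACHE and CDKN1B (ENSDARG00000054271) share them with genes on the other strand. None of these further overlapping genes had a read in any cell.

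Few genes belonged to the 3 cells alone. Of 5037 genes with 5 or more reads in any of them, 830 were in all 3, 1164 in exactly 2 and 3043 in exactly 1. Of the 830, 58 had under 5 reads in each of the 5 other cells, and 15 had under 5 reads in each of the 64 other cells of the series. The 15 were ISL1, MNX1, LHX4, EBF3, INSM1 (ENSDARG00000091756), SLC18A3, SLIT3, EFNA2, ABLIM1, the adhesion gene l1camb, the neuropeptide gene adcyap1b, the monoamine and nucleoside transporter SLC29A4, the mannosidase MAN1A1, shtn3 and zgc:77784, and 9 of them had no read at all in sham cells. Of the 15, ISL1 and MNX1 chose the cells, so their detection in all 3 was fixed in advance. The neuropeptide gene adcyap1b had 332, 621 and 383 CPM in lesion cells 3, 8 and 15, and SLC29A4 had 143, 524 and 414 CPM. Counted at 1 read in place of 5, 7 genes were in the 3 cells alone, and set against the other lesion cells only, 23 were. Over the 7162 genes, Pearson's r of log2(CPM + 1) was 0.317 to 0.375 between the ISL1 and MNX1 cells, 0.193 to 0.610 among the 5 others, with the highest value between lesion cells 12 and 13, and 0.161 to 0.240 between the sets. These values describe pairs of cells of 1 pool, over genes partly set by how many transcripts each cell yielded.

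Lists of immune, blood, vessel, connective tissue and muscle cells each summed to at most 257 CPM in the ISL1 and MNX1 cells. Only the neutrophil list, in lesion cell 15, lay above the highest of the 5 other cells. Of 30 microglia and macrophage genes 29 had no read in the 3 cells, and CTSB, a cathepsin, had 177 CPM in lesion cell 8, against 4963 CPM in lesion cell 12. All 14 lymphocyte genes and all 17 endothelial genes had none. The summed levels of the erythrocyte, pericyte, fibroblast, neutrophil and skeletal muscle lists were at most 5.42, 23.5, 159, 257 and 21.7 CPM in the 3 cells, against at most 16.4, 416, 1306, 159 and 91.2 CPM in the 5. The Schwann cell list summed to 320 to 574 CPM in the 3 cells, against 406 to 6344 CPM in the 5, and the premyelinating oligodendrocyte list to at most 164 CPM, against at most 1856 CPM. Of 16 Hedgehog genes 14 had no read in the 3 cells. The counts of genes with no read given here stand beside 12088 of 32266 genes with a read in the 8 cells together. The 3 cells alone can have had no more than these, and 5037 genes were in any of them at 5 or more reads. On the list of spinal progenitor factors, SP8 (ENSDARG00000056666) had 88.5 and 621 CPM in lesion cells 3 and 15 and none in lesion cell 8, against 698 CPM in lesion cell 13. Leaving aside ISL1 and MNX1, which chose the cells, each of the 3 had LHX4, SLC18A3 and CHAT, and by these markers they are called motor neuron-like. These markers were picked with the values of their lists known. AGRN was in all 3 cells too, but mnx2a, mnx2b, ISL2, PRPH, CHODL, RET and ACHE were not. Of the 8 motor neuron factors 2 had no read in any of the 3 cells, and of the 12 cholinergic and mature genes 3 had none. The same cells also had nes, VIM, MSI1 and OLIG2, and lesion cells 3 and 15 had FOXJ1. Whether these belong to 1 cell or to material from several was not tested.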

How the data were processed

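RNA of 67 single cells was sequenced. The file that the authors deposited gives the raw count of reads of each gene in each cell. The submitters' processing notes name bcl2fastq 2.19.1 for demultiplexing, GSNAP for alignment to GRCz10 and featureCounts 1.6.2 for counting, and the header of the file gives version 1.6.3 of featureCounts. Genes were those of Ensembl release 87 and a mapping quality of 1 was the minimum, per the file headers. Counting ignored strand, so a read in overlapping genes could belong to either, and near-identical copies may have lost reads. Which library kit was used is not given in the sources used here.

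Spike-in sequences (92, with 71 reads in all) were left out. Counts of the 32266 genes were scaled per cell to CPM, and 26433 gene IDs had a symbol. A gene was measured at a mean of 20 CPM in either set, detected at 5 reads and called at 4-fold. Named were the 15 genes per direction with the largest ratio among those with a proper symbol, 5 or more reads in every cell of the higher set and no overlap, the selecting genes, and up to 4 list members detected in 2 or more of the 3 cells with the highest mean. Of the genes this rule names, 2 lower ones are not reported here. Other list members named in the text were chosen after their values were seen. List symbols were matched to the name table, and 75 of 901 had no match. The members and lists were chosen with earlier results of these data known. Genes at 0 in a set were bounded by 3 counts over that set. The deposited values are counts of reads and not of separate molecules, and intervals and bounds cover counting error only. Doublets were not called, given the number of cells. The ratio and calls were run on simulated Poisson counts with known changes, in which cells of a set differed by counting error only. False calls in the real cells were not measured.

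Alternatives used TMM factors of edgeR 4.0.16, size factors of DESeq2 1.42.0, summed counts, a prior of 10 CPM, thinning, other filters and limits, other cells to compare with, and each cell left out in turn. Python 3.11.15, numpy 2.4.6, pandas 2.3.3 and R 4.3.3 were used. The comparison of genes found in the 3 cells alone, at other read minimums and against lesion cells only, was added after seeing the data.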

Additional observations from a re-analysis of the deposited data

Results flagged for a closer look

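Among the 5 cells compared with the ISL1 and MNX1 cells, 3 values lay far from the other 4 cells by Dixon's gap over range, out of 9 quantities looked at. Chance flags about 1 in 20 by this rule only where values are normal, which 5 cells cannot show. The 3 values are therefore flags and not results of a test. The summed level of the Notch signalling list in lesion cell 13 was 39340 CPM, against 6287 CPM in the next cell. The summed level of the oligodendrocyte progenitor list in lesion cell 4 was 20010 CPM, against 5765 CPM in the next. OLIG2, a member of that list, was at 14220 CPM in lesion cell 4, against 3867 CPM in the next.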

How the results depend on the processing

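The 3 ISL1 and MNX1 cells were the same number of cells at a minimum of 1 or 10 reads, and other plp1b, olig1 and GRIN1 limits left the counts of genes and the list medians as reported. With TMM factors the median log2 ratio of all genes moved by -0.62, with 130 genes higher and 122 lower without overlap. A prior of 10 CPM brought the Notch signalling, oligodendrocyte progenitor and mitosis medians to -2.45, -2.37 and -2.38, because many of their members were at or near 0 in the 3 cells. Against the 12 other lesion cells with low plp1b, 86 genes were higher and 6 lower, and the neuron median was 0.59. All of the 6 sham cells with low plp1b but sham cell 30 had olig1 and GRIN1, unlike the 5 other lesion cells. Against the 6 sham cells with low plp1b, 38 genes were lower, the neurogenic and neuron medians were 7.28 and 0.48, the Notch signalling median turned to 4.19, and the log2 ratio of BUB3 turned to -1.08; the cause was not tested. Without sham cell 32, a setting chosen after seeing the data, 59 genes were lower, these medians were 7.28, 0.63 and 3.99, and the ratio of BUB3 was 0.32. Genes in the 3 cells alone numbered 7 at 1 read and 23 against lesion cells only.

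Leaving out each of the 8 cells in turn gave 164 to 397 genes higher, 126 to 197 genes lower, and medians of 1.42 to 5.40 for neurogenic factors, 3.02 to 4.44 for neuron, -5.93 to -3.54 for Notch signalling, -5.25 to -2.63 for ependymo-radial glia, -5.84 to -4.13 for oligodendrocyte progenitor and -5.50 to -4.82 for mitosis. Of 1550 alternative ratios of 74 named genes, 1518 kept their sign. No paired analysis was possible because replicate numbers of single cells only name them, and no result came from a test. With 3 cells of 1 pool, neither the spread between fish nor that between cells of 1 kind can be estimated, and a gene at 0 in a cell may have been missed there.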
